A study of Mus musculus with 2 samples.

Results

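The genes described here encode secreted acute phase and antimicrobial proteins of myeloid cells: Hp, Lcn2, Saa3, Ltf, Camp, Ngp, Bpi, Lyz2, Pglyrp1 and Pglyrp2. They were chosen by name, and each of the 10 symbols matched 1 of the 23309 rows of the deposited gene table. RNA had been sequenced from mouse haematopoietic progenitors, taken from lineage-depleted bone marrow with the genotype Cebpaf/f;CreER, which carried retroviral MIGR1-HA-Hoxa9 together with MIGR1-Flag-Meis1 and grew with IL3. The floxed Cebpa alleles, the tamoxifen-activated Cre recombinase CreER and both retroviruses were shared by the 2 groups, which received EtOH, the vehicle, or 5 nM 4OHT (4-hydroxytamoxifen, which activates CreER) for 72 h. Each group is 1 deposited sample that joins 2 replicates, so a gene has 1 value per condition and no spread. What drives CreER, the age of the mice and the number of clones are not given in the sources used here, and no group analysed here received 4OHT without CreER, so loss of Cebpa cannot be told apart from other effects of the drug or of Cre.

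Neutrophils make most of these proteins in stages as they mature and pack them into granules. Several work by withholding nutrients from microbes: Hp binds free haemoglobin, Lcn2 binds the siderophores with which bacteria collect iron, and Ltf binds iron itself. Others act on the microbial surface: Lyz2, Pglyrp1 and Pglyrp2 bind or cut peptidoglycan, Bpi binds lipopolysaccharide, and Camp is the precursor of the membrane-disrupting cathelicidin peptide. Hp and the Saa proteins are also classical acute phase proteins, released in quantity during inflammation, and C/EBP factors are known regulators of many genes of this kind.

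After 4OHT, Hp and Lcn2 fell, Pglyrp2 rose, and the other tested genes did not pass the test. A gene is said to rise or fall where the authors' deposited table lists it as tested with a q (a p-value adjusted over all tested rows) under 0.05. Of the 10 genes 8 were tested, and of those 2 were lower, 1 was higher and 5 were not called. Over all genes 5.91% of 11953 tested rows were called, 3.11% lower and 2.80% higher, and because the genes were picked with these results known, their share is a description and not evidence of enrichment. Levels are given in FPKM, fragments scaled by transcript length and library depth, so that genes can be compared with each other. Only 5 of the 10 genes reached 1 FPKM in either condition, and 10989 rows of the table did so.

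**Figure D1:**
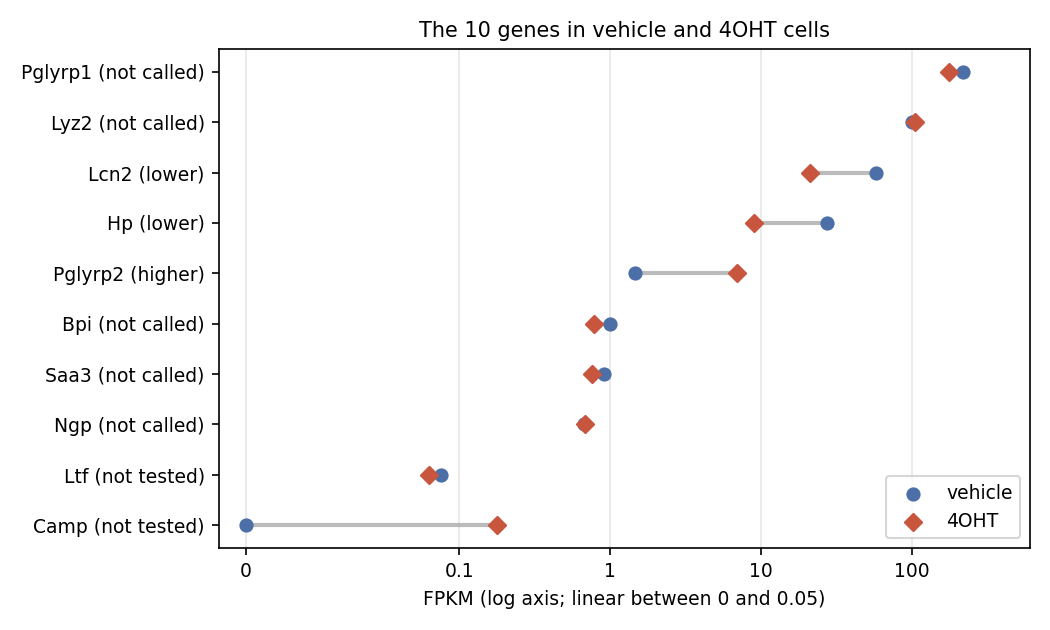
FPKM of each of the 10 genes in vehicle cells (circles) and 4OHT cells (diamonds), 1 deposited value per condition, on a log axis that is linear between 0 and 0.05. Hp and Lcn2 lie to the left of their vehicle value after 4OHT (8.94 against 27.2 FPKM for Hp), Pglyrp2 lies to the right of it, and Camp is listed at 0 in vehicle cells.

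The RNA level of the targeted gene is given for comparison. It does not measure what share of alleles or cells was deleted. Cebpa stood at 109 FPKM with vehicle and 42.8 FPKM with 4OHT, and the authors' deposited table gave q = 0.00165, so Cebpa RNA was reduced and not absent. In bulk RNA, fewer cells that express a gene and less RNA per cell cannot be told apart, and this holds for every value below.

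Among the proteins that capture haemoglobin, siderophores or iron, Hp and Lcn2 fell and Ltf was barely detected. Hp, haptoglobin, had 27.2 FPKM with vehicle and 8.94 FPKM with 4OHT (mm9 chromosome 8, 112099028 to 112103072). The 4OHT sample was the lower one, with 32.8% of the vehicle level, a 3.04-fold fall, and the authors' deposited table gave q = 0.00165. In vehicle cells Hp was above 66.5% of the measured rows, and after 4OHT above 34.7% of them. Lcn2, the siderophore-binding lipocalin, had 57.2 FPKM with vehicle and 21.0 FPKM with 4OHT (chromosome 2, 32240157 to 32243259). Its 4OHT sample again was lower, with 36.7% of the vehicle level, a 2.72-fold fall with the same q in the authors' deposited table. That q is the smallest the table holds, shared by the 363 tested rows with the smallest deposited p, so it does not rank Hp against Lcn2. Ltf, lactoferrin, was listed at 0.0751 and 0.0630 FPKM and was not tested by the authors (chromosome 9, 110921796 to 110945270). Of the pair that binds iron or iron carriers, Lcn2 was the abundant one in both conditions.

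Of the pair of peptidoglycan recognition proteins, Pglyrp2 rose and Pglyrp1 was not called. Pglyrp1, a granule protein that binds peptidoglycan, was the highest of the 10 genes in both conditions, at 217 FPKM with vehicle and 174 FPKM with 4OHT (chromosome 7, 19470039 to 19475787). The 4OHT sample was lower, at 80.1% of vehicle. Its unadjusted p in the authors' deposited table was 0.0494 and its q was 0.401, so the difference did not pass the test. Pglyrp2, an amidase that cuts peptidoglycan and is best known as a liver product, had 1.45 FPKM with vehicle and 6.91 FPKM with 4OHT (chromosome 17, 32549406 to 32561112). The 4OHT sample was higher, a 4.77-fold rise, and the authors' deposited table gave q = 0.00165. The level of Pglyrp1 was 149.7 times that of Pglyrp2 in vehicle cells and 25.2 times after 4OHT, and that change in ratio was not itself tested. Their coding sequences are 546 and 1590 bases long and shared no identical run longer than 10 bases. Aligned over their whole lengths, they agreed at 325 of 1593 positions, or 20.4%. Most of those positions face a gap because of the unequal lengths, so 20.4% does not measure their likeness where both have sequence. Pglyrp3 and Pglyrp4, the other members of the family, were listed at 0 in both conditions.

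The sequences before the transcription start of Lcn2, which fell, and of the paralogs Pglyrp1 and Pglyrp2 are shown because C/EBP proteins bind DNA and the 3 genes had different calls. Each is the 250 bases before the RefSeq start, 5′ to 3′ on the strand of the gene in build GRCm38.p6, and capitals mark matches on either strand to the letters TTNCNNAA, a loose form of the C/EBP motif, where N is any base. The Lcn2 window is chr2:32387740-32387989 on the minus strand, the Pglyrp1 window chr7:18884440-18884689 on the plus strand, and the Pglyrp2 window chr17:32420976-32421225 on the minus strand.
Lcn2: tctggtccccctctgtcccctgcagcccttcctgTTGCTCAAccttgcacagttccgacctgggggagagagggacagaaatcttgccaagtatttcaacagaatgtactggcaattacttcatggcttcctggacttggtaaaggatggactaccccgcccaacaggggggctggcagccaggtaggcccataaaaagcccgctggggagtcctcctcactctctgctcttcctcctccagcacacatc
Pglyrp1: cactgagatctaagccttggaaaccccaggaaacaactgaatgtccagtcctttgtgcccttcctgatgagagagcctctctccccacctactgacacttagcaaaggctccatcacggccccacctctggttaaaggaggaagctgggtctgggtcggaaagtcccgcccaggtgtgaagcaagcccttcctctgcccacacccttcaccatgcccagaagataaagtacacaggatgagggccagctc
Pglyrp2: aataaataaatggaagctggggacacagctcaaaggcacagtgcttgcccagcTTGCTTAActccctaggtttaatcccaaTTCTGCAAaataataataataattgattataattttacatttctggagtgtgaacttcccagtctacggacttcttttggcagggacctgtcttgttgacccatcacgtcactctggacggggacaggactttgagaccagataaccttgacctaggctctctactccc
Lcn2 held 1 match, TTGCTCAA, from 216 to 209 bases before the start. Pglyrp2 held 2, TTGCTTAA from 197 to 190 and TTCTGCAA from 169 to 162 bases before the start, and Pglyrp1 held none in this window. All 3 also match the stricter letters TTGCNNAA, whose matches are a subset of the loose ones.

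RefSeq windows were matched for 9 of the 10 genes, and Hp was not among them. TTGCNNAA was present in 5 of the 9 (Lcn2, Saa3, Ltf, Ngp and Pglyrp2) and in 9.56% of all 32851 promoter windows of the same length. The loose letters TTNCNNAA were present in 6 of the 9, with Lyz2 as the further gene, and in 36.8% of all windows. GAGGAA, a core bound by PU.1, and a loose NF-kB form (GGG, any 5 bases, CC) were each present in Lcn2, Ltf, Bpi and Pglyrp1, against 23.3% and 45.8% of all windows. TTCNNNGAA, the STAT form, was in none of the 9 and in 7.02% of all windows. Genes with the strict C/EBP letters thus included 1 that fell, 1 that rose, 2 tested without a call and 1 not tested. The letters describe the reference sequence only, and no binding was measured here.

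Lyz2, lysozyme M, which cuts the sugar backbone of peptidoglycan and is a general marker of myeloid cells, was not called. It had 99.0 FPKM with vehicle and 104 FPKM with 4OHT (chromosome 10, 116714597 to 116719328), and the authors' deposited table gave q = 1.00. The neighbouring gene Lyz1 lies 5.52 kb away and had 4.64 and 5.07 FPKM. The Lyz2 and Lyz1 coding sequences are both 444 bases long, agree at 95.0% of positions and share an identical run of 118 bases, so reads could be exchanged between them and the split is uncertain. Lyz2 was 21.3 times as high as Lyz1 in vehicle cells and 20.5 times after 4OHT. Lyz2 and Pglyrp1 together made up 78.1% of the summed FPKM of the 10 genes in vehicle cells (404 FPKM) and 87.6% after 4OHT (317 FPKM).

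The remaining genes were low in both conditions. Bpi, which binds the lipopolysaccharide of Gram-negative bacteria, had 0.989 and 0.779 FPKM (chromosome 2, 158083977 to 158110267). Saa3, the serum amyloid A form made mainly outside the liver, had 0.904 and 0.756 FPKM (chromosome 7, 53967368 to 53971046). For both the 4OHT sample was the lower one, and q was 1.00 in the authors' deposited table. Ngp, neutrophilic granule protein, a relative of the cystatins and cathelicidins, had 0.673 and 0.676 FPKM (chromosome 9, 110322312 to 110325516), and was not called either. Camp, the cathelicidin gene, was listed at 0 in vehicle cells and at 0.177 FPKM after 4OHT (chromosome 9, 109749891 to 109751970), was not tested, and gets no fold. Camp, Ngp and Ltf lie within 1.20 Mb of each other on chromosome 9, and none of the 3 reached 1 FPKM.

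How firmly the uncalled genes can be read was gauged from tested rows at a similar level. Among tested rows within 1.5-fold of the level of Bpi, and above 0 in both conditions, the smallest fold called was 1.59, and 63.2% of those with at least a 2-fold change were called. For rows at the level of Ngp the smallest fold called was 1.71, and 44.2% of the 2-fold changes were called. Bpi differed by 1.27-fold and Saa3 by 1.20-fold, below the smallest fold called at the level of any of the 8 tested genes, so changes of that size would not have been called. At the level of Pglyrp1 the smallest fold called was 1.42, above its own 1.25, and at that of Lyz2 it was 1.39. Of the rows there with at least a 2-fold change, 5 of 9 (55.6%) were called for Pglyrp1 and 7 of 13 (53.8%) for Lyz2. These shares rest on few rows, of any gene type, so they do not settle how firmly the 2 abundant uncalled genes can be read as unchanged. At the levels of Hp and Lcn2, 79.5% and 81.0% of 2-fold changes were called. At the level of Pglyrp2, 89.7% of 2-fold changes were called.

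**Figure D2:**
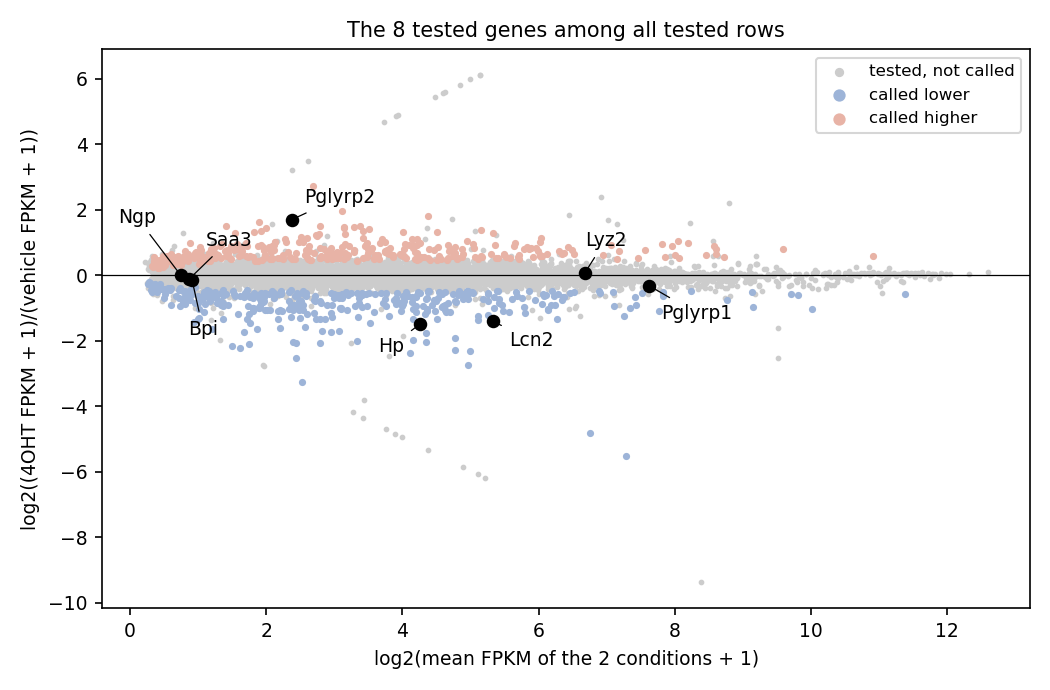
The 8 tested genes (black, labelled) among all tested rows, with log2(mean FPKM + 1) on the x axis and log2((4OHT FPKM + 1)/(vehicle FPKM + 1)) on the y axis, where blue rows were called lower and red rows higher. Hp and Lcn2 lie at -1.51 and -1.40 among the rows called lower, Pglyrp2 at 1.69 among those called higher, and the others within the grey band.

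The rows most like each called gene were found by distance over its 2 values, on the log2(FPKM + 1) scale. For Lcn2 they were Tex2 (52.4 and 22.0 FPKM), the angiogenic factor gene Vegfa (47.4 and 19.4 FPKM) and the galectin gene Lgals3 (48.8 and 18.2 FPKM), and all 3 fell. For Hp they were the microRNA row Mir330 (27.1 and 8.83 FPKM), the glycosyltransferase gene B3gnt8 (24.6 and 9.20 FPKM) and Fgd4 (30.6 and 8.23 FPKM). B3gnt8 and Fgd4 fell, and Mir330, with nearly the same values as Hp, had q = 1.00 in the authors' deposited table. For Pglyrp2 they were H2-L (1.16 and 5.37 FPKM), Gimap8 (2.09 and 5.59 FPKM) and Sytl3 (1.16 and 4.87 FPKM). Gimap8 and Sytl3 rose, and H2-L was not called.

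The nearest row on each side of every gene gave 20 neighbours, and 3 of them were called, against 5.91% of all tested rows. Among the 20, Saa4, Rtp3, D630003M21Rik, 9530003J23Rik and Cyp4f39 were not tested. With so few neighbours the count is a description only. Both neighbours of Hp, Txnl4b (8.18 and 7.07 FPKM) and Dhodh (15.9 and 16.2 FPKM), were uncalled. Next to Lcn2, the row 1110008P14Rik had 19.1 and 14.0 FPKM and Ptges2 had 11.7 and 10.9 FPKM, and neither was called. Rasal3, 7.65 kb from Pglyrp2, rose from 18.6 to 26.7 FPKM, and its q was 0.0279 per the authors' deposited table. The others called were Klhl18 beside Ngp, which rose from 12.0 to 18.3 FPKM, and Lbp beside Bpi, which fell.

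Other proteins of the same kinds were counted in lists of related genes, each read over members with at least 1 FPKM in either condition. Over all measured rows 3.08% were called lower and 2.68% higher, 5.77% together, and the median log2 ratio, with a pseudocount of 1 FPKM, was 0.00. The 5 measured genes described above had a median of -0.32. The lists were written with earlier results of these data known, so their counts are descriptions.

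Of 23 other acute phase genes only 4 were measured, and 11 were listed at 0 in both conditions, among them Saa1, Saa2, Crp and the fibrinogen genes. Within the 4, 1 fell and 1 rose, with a median log2 ratio of -0.46. C3, the central complement protein, fell from 18.7 to 7.33 FPKM. Serpina3g, a serpin of haematopoietic cells that inhibits cysteine proteases and is no liver acute phase protein, rose from 186 to 276 FPKM. The authors' deposited table gave q values of 0.00165 for C3 and 0.0101 for Serpina3g, and because Serpina3g has near-identical neighbours its reads may be shared. Cp, ceruloplasmin, had 2.17 and 1.18 FPKM, and Orm3, an orosomucoid gene, 1.76 and 1.11 FPKM, and neither was called.

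Granule and antimicrobial genes fell more often than they rose. Of 34 such genes 18 were measured, of which 7 fell, 11 were not called and none rose; the median log2 ratio was -0.24. Slpi, a secreted inhibitor of neutrophil elastase with antimicrobial activity, fell from 215 to 89.9 FPKM, 2.39-fold. Lbp, the lipopolysaccharide-binding relative of Bpi, fell from 30.7 to 15.5 FPKM, 1.98-fold, while Bpi itself was low. Lbp was counted here and not in the acute phase list, so the counts of both lists depend on where it is placed. The Bpi and Lbp coding sequences share 54.6% of aligned positions. S100a8, S100a9, Elane, Prtn3 and Ctsg were the other genes that fell, of which S100a8 changed by 6.15-fold and Ctsg by 1.48-fold. In the authors' deposited table q lay between 0.00165 and 0.0382 for the 7. The highest genes without a call were Cst7, a cystatin (513 and 650.3 FPKM), and Mpo, myeloperoxidase (496 and 603 FPKM). Below 1 FPKM, Cd177, a neutrophil surface protein, fell from 0.460 to 0.118 FPKM where the authors' deposited table gave q = 0.0218.

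Genes that handle iron and haem beside Hp, Lcn2 and Ltf were mostly uncalled. Of 16 listed, 9 were measured, 1 fell and none rose, and the median log2 ratio was -0.07. Hmox1, haem oxygenase 1, which breaks down haem, fell from 19.7 to 10.9 FPKM, and the authors' deposited table gave q = 0.00165. The ferritin chains were the highest, Ftl1 with 2254 and 2009 FPKM and Fth1 with 1006 and 1129 FPKM, and neither was called. Receptors for Hp and Lcn2 in this list were under 1 FPKM: Cd163, which takes up haptoglobin bound to haemoglobin, had 0.402 and 0.496 FPKM, and Slc22a17, a receptor of Lcn2, had 0.198 and 0.348 FPKM.

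Of 16 receptors and sensors linked to the 10 proteins or to microbial products, 12 were measured, 5 fell and none rose; the median log2 ratio of the 12 was -0.39. Itgam, the integrin chain of complement receptor 3, fell from 33.1 to 14.5 FPKM. The lipopolysaccharide receptors Cd14 and Tlr4 fell from 16.9 to 8.26 FPKM and from 21.4 to 11.8 FPKM. Trem1, a receptor for which Pglyrp1 is a known ligand, fell from 6.32 to 3.72 FPKM, and Nod1, a sensor of peptidoglycan fragments, from 4.57 to 2.73 FPKM. The authors' deposited table gave q values of 0.00165 for Itgam, Cd14 and Tlr4, 0.00698 for Trem1 and 0.0101 for Nod1. Itgb2 (93.6 and 76.5 FPKM) and Scarb1, a receptor of serum amyloid A (77.3 and 61.1 FPKM), were the highest genes without a call, and Fpr1 and Fpr2 were listed at 0.

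Of 21 regulators known for genes of this kind, 18 were measured, 3 fell, 1 rose and 14 were not called, with a median log2 ratio of -0.20. Beside Cebpa, Il1rn, a secreted blocker of the interleukin-1 receptor, went down from 5.95 to 1.29 FPKM, and Socs3, the feedback inhibitor of interleukin-6 signalling, fell from 19.5 to 10.6 FPKM. Il6, the main inducer of the acute phase response, rose from 5.13 to 10.1 FPKM. The authors' deposited table gave q values of 0.00165 for Il1rn and Socs3 and 0.00569 for Il6. Cebpb had 30.4 and 21.5 FPKM, Gfi1 72.9 and 53.1 FPKM and Nfkb1 73.6 and 100.1 FPKM, and none of these was called. Their q values in the authors' deposited table were 0.082, 0.0531 and 0.0888, close to the threshold. Cebpe (17.1 and 13.6 FPKM) and Spi1 (PU.1, 99.8 and 81.3 FPKM) were not called either, with q values of 0.598 and 0.491.

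**Figure D3:**
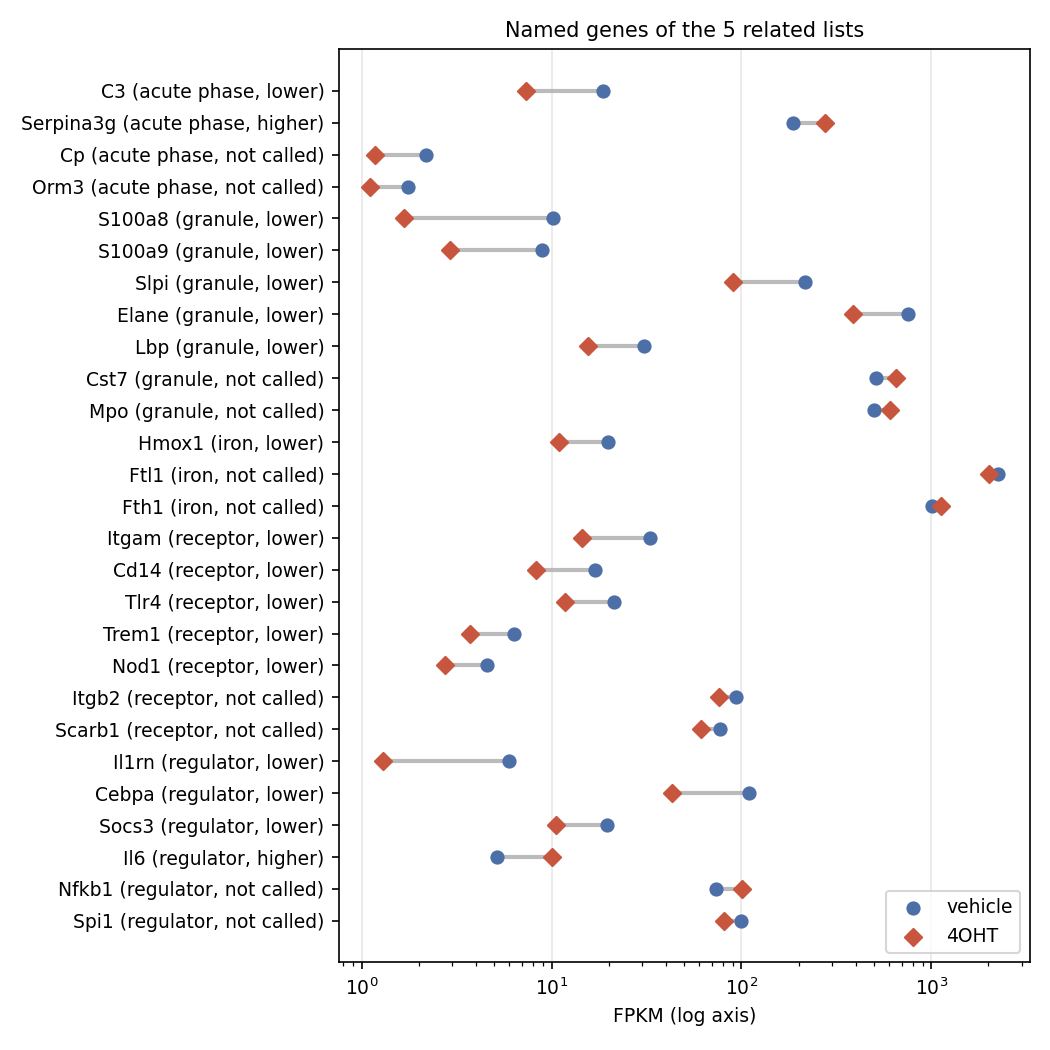
FPKM in vehicle cells (circles) and 4OHT cells (diamonds) of the named genes of the related lists, on a log axis, with the list and the call in brackets. The called receptors and granule genes all lie lower after 4OHT, and Serpina3g and Il6 lie higher.

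**Figure D4:**
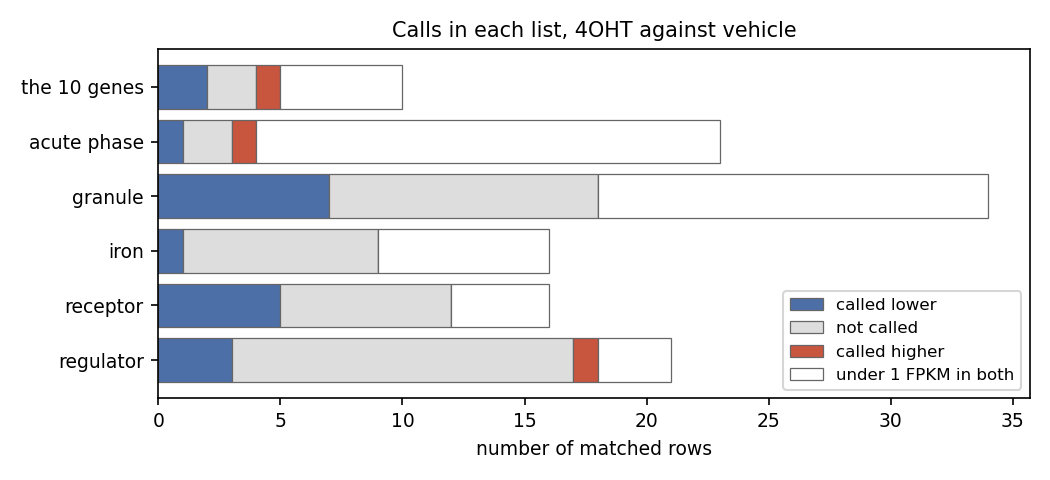
Number of matched rows in each list that were called lower (blue), not called (grey) or called higher (red) among rows with at least 1 FPKM, and that were under 1 FPKM in both conditions (white). The granule list has 7 rows called lower and the receptor list 5, and 19 of 23 acute phase rows were under 1 FPKM.

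Markers of the cell types that such cultures could hold were summed over each list. All 6 progenitor markers were measured and summed to 1714 FPKM with vehicle and 1686 FPKM with 4OHT; Kit, Cd34 and Flt3 rose and Elane fell. Mature neutrophil markers were scarce, with 2 of 6 matched genes measured, Mmp8 and Cxcr2, a sum of 6.92 and 4.70 FPKM, Cxcr2 lower, and Retnlg at 0. Monocyte and macrophage markers summed to 701 and 456 FPKM, with 3 of 8 measured; Ly6c2 fell from 551 to 323 FPKM and carried most of the difference, while Emr1 (147 and 129 FPKM) and Csf1r (2.84 and 2.55 FPKM) were not called. Mast cell and basophil markers summed to 626 and 1039 FPKM, with 3 of 6 measured and Mcpt4 at 0. Cpa3 alone rose, from 562 to 975 FPKM, while Mcpt8 (61.2 and 61.0 FPKM), Cma1 (2.16 and 3.06 FPKM) and Tpsb2 (0.839 and 0.654 FPKM) were not called. Over all the lists, the markers that fell with Hp and Lcn2 were Elane, Cxcr2, Ly6c2 and Lepr. Those that rose with Pglyrp2 were Kit, Cd34, Flt3, Cpa3 and Pdgfrb. They come from several lists, each with other markers not called or not tested, and the part of these cell types in the results was not tested. Hepatocyte markers, relevant because the liver makes Hp and Pglyrp2, summed to 1.86 and 2.33 FPKM, nearly all of it Apoa2, with Ttr and Fga at 0. Endothelial, T or NK cell, B cell and erythroid lists each summed to under 1 FPKM in both conditions. The stromal list summed to 7.48 and 13.6 FPKM, nearly all of it Pdgfrb, which rose; Lepr fell and Col3a1 was at 0.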

How the data were processed

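RNA sequencing was done on 1 vehicle and 1 4OHT sample. Per the labels' protocols, column-purified total RNA went into Illumina TruSeq libraries; strand is not given, so overlapping genes cannot be separated. Cuffdiff 2.0.2, Bowtie2 2.0.0.7, CASAVA 1.8.2 and build mm9 are named, without roles, per the submitters' processing notes. The authors deposited 1 FPKM value per gene and condition, per the file headers, with a p-value and a q-value. The q-value equals a Benjamini-Hochberg adjustment of the deposited p-value over the 11953 tested rows, within 5.28e-07. All deposited p-values are multiples of 5e-05, as resampling would give; whether the named Cuffdiff release made them is in doubt, so the test behind q, on which every call rests, is not known. No test of a difference was added, since each condition has 1 value.

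Log2 ratios used a pseudocount of 1 FPKM, which understates changes of low genes; folds are plain FPKM ratios. Of 110 entries in 5 lists, 107 matched by symbol, 2 by an older symbol and 1 in a joined row. Members, lists and rules were chosen with earlier results of these data known. Named were the 10 genes, Cebpa, up to 5 called genes per direction and the 2 highest uncalled genes of each list. Also named were the 3 rows nearest in pattern to each called gene, and chromosomal neighbours. Cd177, Cd163, Slc22a17, Prtn3, Ctsg, Cebpb, Cebpe, Gfi1 and genes listed at 0 were added after their values were seen. Promoters come from RefSeq GRCm38.p6, coding sequences from GENCODE M21 on GRCm38, aligned globally with Biopython 1.88; gene loci are those of mm9. For Saa3 the RefSeq start did not match a GENCODE transcript. The adjustment and the motif search were tested on simulated data. The table holds no read counts. Alternatives covered the pseudocount, scaling, threshold, adjustment and level filter.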

Additional observations from a re-analysis of the deposited data

How the results depend on the processing

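For the 8 tested genes, 58 of 61 alternatives kept the direction and the side of the threshold. They were pseudocounts of 0.1 FPKM and none, 2 scalings, thresholds of 0.01 and 0.1, an adjustment over rows with at least 1 FPKM, and a Bonferroni adjustment. The exceptions were Hp, Lcn2 and Pglyrp2 under Bonferroni, with an adjusted p of 0.598 each, which left 0 genes called lower and 0 higher. No row can pass Bonferroni, because the smallest deposited p is 5e-05. The pseudocounts and scalings reuse the deposited q, so they could change only the ratio. None of the 8 genes had a q between 0.01 and 0.1, so those 2 thresholds could not change a call. The count of 58 is therefore no measure of how firm the calls are. Scaling to equal totals shifted log2 ratios by 0.023 before the pseudocount, and by less for low genes after it. Over all tested rows, 335 were higher and 372 lower; at a threshold of 0.01 there were 205 higher, and with at least a 2-fold change 136 higher and 192 lower. At a threshold of 0.01 no gene of the acute phase list was higher (0 against 1, which was Serpina3g). At 0.1 the regulators counted 2 higher, with Nfkb1 added, and 5 lower, with Cebpb and Gfi1 added (against 1 and 3). The other 38 recounts stayed within 1.5 times. No paired analysis was possible because each condition has 1 deposited value that joins both replicates.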

Other observations

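Low values in the table move in steps, which gives the relative depth of the samples. Among 1402 rows above 0 and under 0.05 FPKM in both conditions, the most frequent ratio of the 4OHT to the vehicle value was 0.853, in 62 rows. The next were 1.706 in 24 rows and 0.427 in 11 rows, which are 2.00 and 0.501 times the first, as whole fragments would give. A fragment was then worth 0.853 times as much FPKM after 4OHT, which corresponds to 1.17 times the depth. In 13 such rows of genes with a single GENCODE transcript over 800 bases, 1 fragment corresponded to a median of 0.0164 FPKM in vehicle cells for a transcript of 1 kb, with a range of 0.0139 to 0.0860 over the 13 rows. The fragment numbers that follow use that median and its 4OHT counterpart with annotated lengths, so they are rough. Ltf would rest on about 13 fragments in vehicle cells and 12 after 4OHT, and Camp on 0 and 9.6. Saa3 would rest on about 31 and 30, Ngp on 50 and 59, Bpi on 120 and 110, and Pglyrp2 on 250 and 1400.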
